A study of Mus musculus with 10 samples.

Results

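Serpins are a family of proteins named after serine protease inhibitors, and 40 of the 18193 mouse genes that a single-symbol probe set could name on the arrays carried the prefix Serpin. Where a gene had several probe sets, the one with the highest mean signal over the 10 arrays stood for it. Of the 40 genes, 21 had a mean signal of 20 or more and are called expressed here, and 19 lay below 20 and are called near background. All 21 expressed genes and 0 of the 19 others passed the filter for testing. The lowest expressed gene was Serpinb6b with a mean signal of 23.4, and the highest below the limit was Serpinb9b with 11.04.

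Liver RNA came from female mice, either C57BL/6J (called B6) or DBA/2J (called D2), both inbred strains. For each strain there was 1 array before a diet high in fat and cholesterol (week 0) and 1 each after 1, 4, 12 and 21 weeks on it, which gave 5 arrays per strain. Each array held RNA pooled from 5 mice, so the spread between arrays of a strain is a spread between weeks and not between mice. No age was given, no group stayed on a control diet, and time on the diet therefore cannot be told apart from age.

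An inhibitory serpin offers an exposed loop to a protease, which cuts it, becomes covalently trapped and is carried across the serpin as the loop inserts into a central sheet. Hepatocytes secrete most serpins of plasma, where they restrain coagulation, fibrinolysis, complement and neutrophil proteases. Clade B serpins stay inside cells and protect them from their own or leaked granule proteases, while some relatives have lost inhibition and carry hormones or fold collagen.

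Promoter windows are shown for the genes on which the strain comparison turned and for a pair of sister genes of the same cluster. Each covers the 250 bases before the transcription start in the C57BL/6J reference (RefSeq, GRCm38.p6), written 5′ to 3′ on the strand of the gene. The region of Serpina11 is chr12:103989958-103990207 on the minus strand, and its capitals mark a palindrome of the STAT type, TTCNNNGAA. That of Serpinb8 is chr1:107589756-107590005 on the plus strand. Those of Serpina1b (chr12:103738190-103738439) and Serpina1c (chr12:103904951-103905200) lie on the minus strand, and in these 3 windows capitals mark GTTAAT, a part of the palindrome that the hepatocyte factor HNF1 binds.

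Serpina11: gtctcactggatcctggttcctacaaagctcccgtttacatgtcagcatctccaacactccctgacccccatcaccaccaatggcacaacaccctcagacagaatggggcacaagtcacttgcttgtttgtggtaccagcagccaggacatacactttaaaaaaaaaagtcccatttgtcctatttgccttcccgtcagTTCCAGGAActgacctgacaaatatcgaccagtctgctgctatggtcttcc
Serpinb8: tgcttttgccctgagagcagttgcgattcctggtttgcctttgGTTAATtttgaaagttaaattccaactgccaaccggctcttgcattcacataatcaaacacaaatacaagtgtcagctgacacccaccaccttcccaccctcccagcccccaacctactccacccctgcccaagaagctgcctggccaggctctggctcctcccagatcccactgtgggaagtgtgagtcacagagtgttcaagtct
Serpina1b: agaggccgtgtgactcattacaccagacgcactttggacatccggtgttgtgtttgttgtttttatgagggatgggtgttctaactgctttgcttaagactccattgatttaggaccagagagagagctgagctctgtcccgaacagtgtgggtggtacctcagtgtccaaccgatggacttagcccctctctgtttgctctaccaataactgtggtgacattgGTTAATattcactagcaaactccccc
Serpina1c: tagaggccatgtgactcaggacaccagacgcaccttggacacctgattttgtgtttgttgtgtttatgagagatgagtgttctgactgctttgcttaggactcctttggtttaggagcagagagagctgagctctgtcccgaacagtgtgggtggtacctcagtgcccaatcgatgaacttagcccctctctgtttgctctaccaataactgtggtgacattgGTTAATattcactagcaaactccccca

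The windows of Serpina1b and Serpina1c were identical at 229 of 252 aligned positions (90.9%), and GTTAAT lay 26 and 27 bases before their starts. Searched on both strands, GTTAAT occurred in 6.43% of all 32851 promoter windows of this length and TTCNNNGAA in 7.02%. Of the 21 expressed serpin genes 16 had a window, and GTTAAT was found in 4 of them (Serpina1b, Serpina1c, Serpina7 and Serpinb8) and TTCNNNGAA in 2 (Serpina11 and Serpinb6a). Of the 40 members 34 had a window, 5 of them with GTTAAT and 6 with TTCNNNGAA. A gene counted if any of its windows matched, while the shares above are of single windows. Serpina11 had 2 windows, of which 1 is printed. The marked and counted stretches are matches of letters in the B6 reference and say nothing of the D2 sequence or of binding.

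The tissue label was checked against 13 hepatocyte markers, of which 12 were tested. Their mean log2 signal lay between 11.69 and 12.04 on all arrays, and Alb, the albumin gene, between 12.51 and 12.64. The normalisation described below limits the range of such high values, and Apoa1, among these markers, was at 13.16 on every array. The narrow ranges therefore do not show that the share of hepatocytes was equal. Lists of markers of other cells differed in how much they varied between arrays. The mean of 15 endothelial markers lay between 6.63 and 6.95, while that of macrophage markers varied more. The mean log2 signal of 23 tested macrophage markers was 9.65, 8.48 and 7.99 in B6 at weeks 4, 21 and 1, and between 6.70 and 7.26 on the other 7 arrays. The trimmed mean of the deposited signals ranged from 56.2 to 89.1 and was lowest in both week 0 arrays, so arrays were quantile normalised. Values below are log2(normalised signal + 1.05), and signals of different probe sets are not compared with each other. The number of arrays limits the precision of every value.

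**Figure D1:**
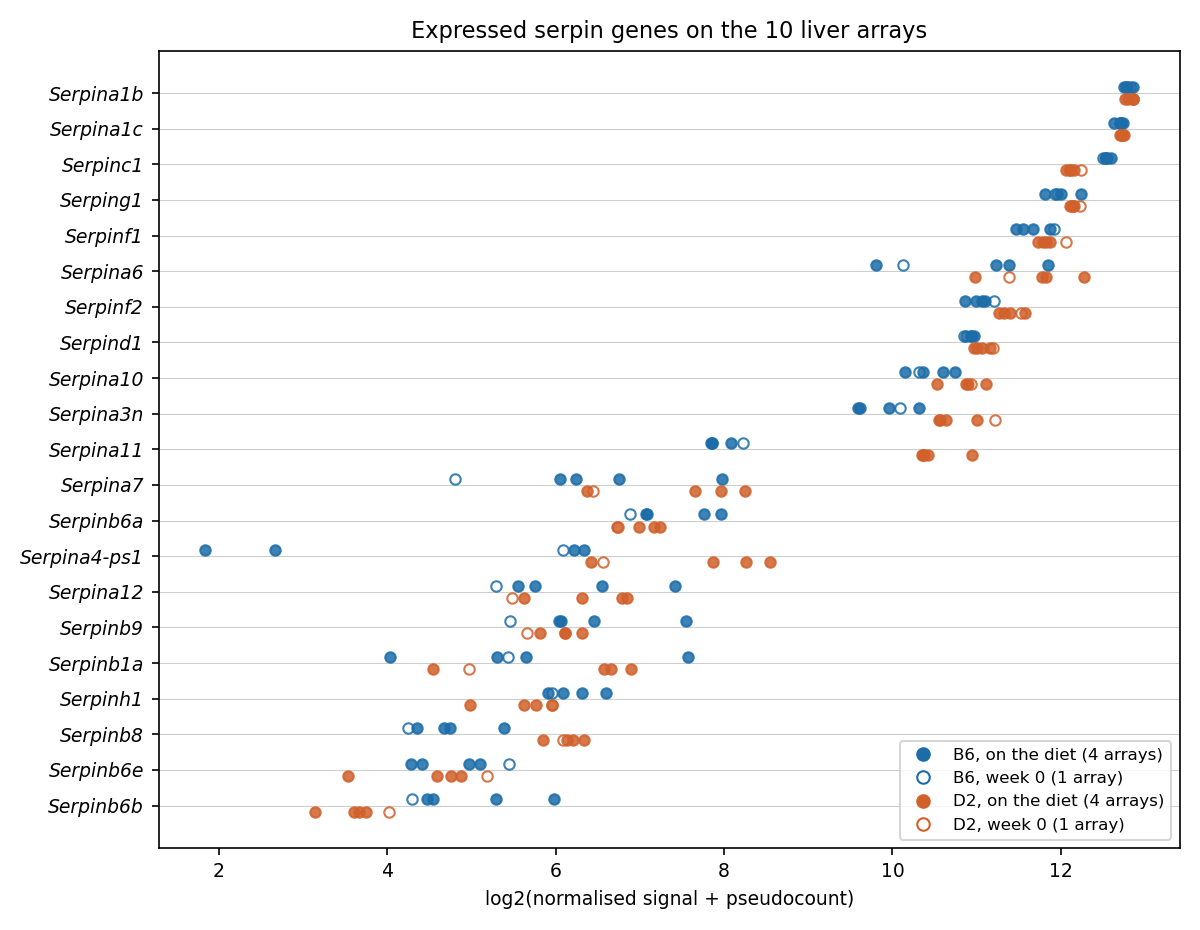
Log2 normalised signal (horizontal) of the 21 expressed serpin genes (vertical, in order of mean deposited signal) on the 10 arrays, 1 point per array, with open points at week 0. The strains separate in Serpina11, where B6 lies between 7.85 and 8.23 and D2 between 10.35 and 10.94, and overlap in Serpina1b and Serpina1c, whose values lie at the top of the normalised scale.

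The strain comparison asked which serpin transcripts differed between B6 and D2 over the 5 weeks. Serpina11, Serpina4-ps1, Serpina3n, Serpinb8 and Serpinf2 were higher in D2, and Serpinc1 and Serpinb6b were lower. These 7 of 21 genes passed limma with week as a block and Benjamini-Hochberg adjustment over 11059 genes, of which 8.03% were called. In each direction, 5 members were higher against 3.93% of all genes and 2 were lower against 4.10%. Of the 2 lower genes, Serpinb6b passed the filter on low values through B6 alone, and without it 6 of the other 20 members were called (5 higher and 1 lower). In these same 7 genes the 5 arrays of B6 and the 5 of D2 did not overlap. D2 was higher in 5 and lower in 2, with Serpinb6b again among the 2. This count reads the same values as the calls and is no separate test. Over all genes tested 8.36% did not overlap, 4.21% with D2 higher and 4.14% with D2 lower. The median difference was 0.16 over the 21 members and 0.01 over all genes tested. Without the arrays of 1 week the count of members called fell as low as 3, when the week 12 array of either strain was left out, and to 4 without either array of week 21. It was also 3 without the B6 arrays of weeks 4 and 21, which stand apart in macrophage markers, and the genes then called were Serpina11, Serpina3n and Serpinb8.

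Clade A holds alpha-1-antitrypsin and its secreted relatives, and its 9 expressed genes all had a positive difference, with a median of 0.77. All 9 were also positive with values as deposited and with arrays centred on their median, while Serpina12 turned negative (−0.19) without either week 12 array. Of these 9, 3 were called, and 6 had an unadjusted p under 0.05, as did 23.9% of all genes tested. Over all genes tested, 5776 differences were positive and 5283 negative. The clade B genes, which act inside cells, had 2 positive and 4 negative differences (median −0.28), and the 6 genes of clades C to I had 4 and 2 (median 0.16). Of each of these clades 1 gene was higher and 1 lower in D2. The lower one of clade B was Serpinb6b, which passed the filter through B6 alone.

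**Figure D2:**
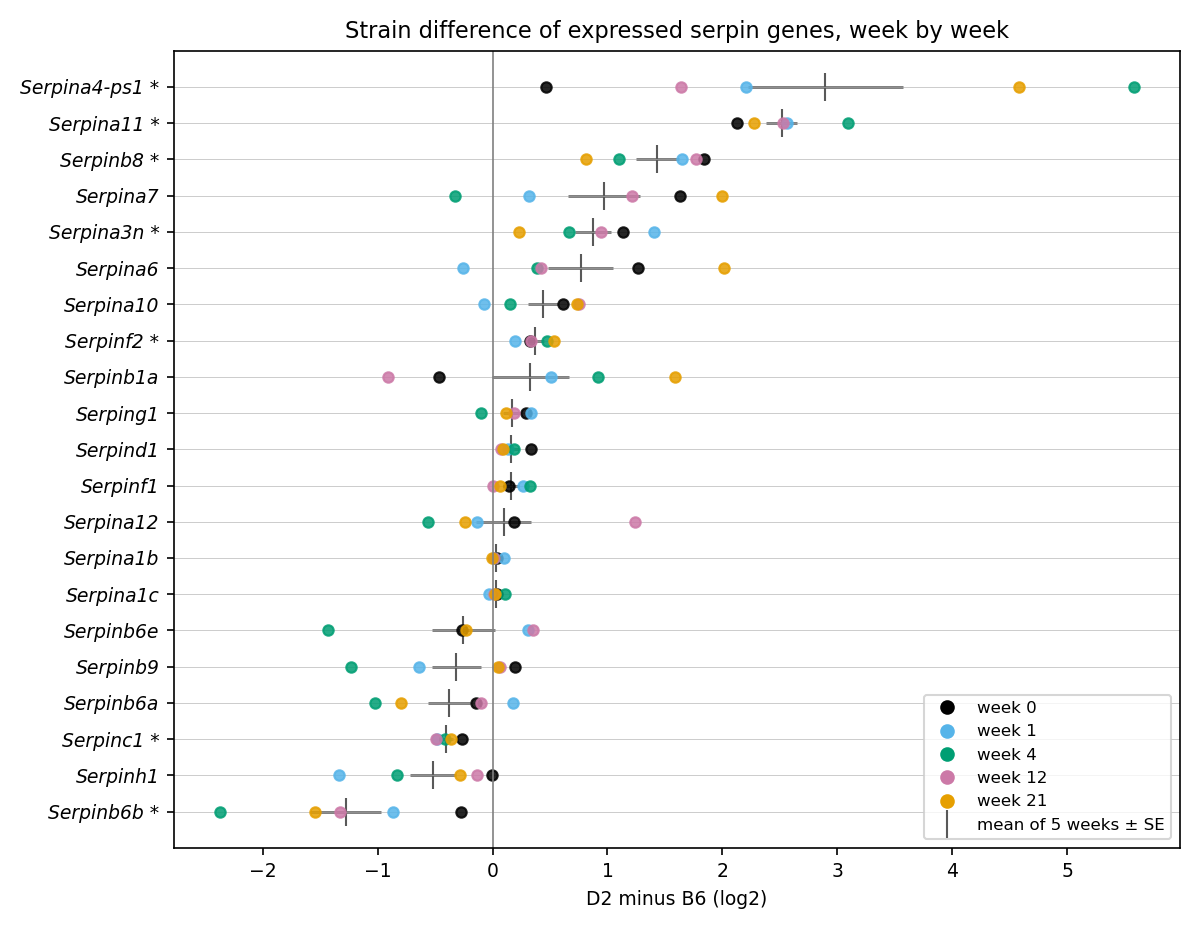
Difference of D2 minus B6 in log2 signal (horizontal) for each expressed serpin gene (vertical), with a coloured point for each week and a grey bar for the mean of 5 weeks with its SE; an asterisk marks the 7 genes that passed. Serpina11 lies between 2.13 and 3.10 at every week, whereas Serpina4-ps1 spans 0.46 to 5.58.

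Serpina11, a secreted clade A serpin whose promoter window is printed above, had the smallest p of the family. In B6 its log2 signal was 8.23 at week 0 and 7.86, 7.85, 7.86 and 8.08 at weeks 1, 4, 12 and 21. In D2 it was 10.36 at week 0 and 10.42, 10.94, 10.38 and 10.35 afterwards. Every D2 array lay above every B6 array, and the largest departure from week 0 was 0.59, in D2 at week 4. The difference was 2.52 ± 0.14 (SE, 5 arrays per strain, limma adjusted p = 5.03e-05), or 5.72-fold. It kept its call whichever array was left out (2.37 to 2.61). With week as a block, leaving out 1 array also takes the other array of that week out of the strain difference. As deposited, the signals were 223 to 283 in B6 and 1070 to 1949 in D2.

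Serpina4-ps1 is annotated in RefSeq as a transcribed pseudogene, a relative of the gene of kallistatin. Its B6 values were 6.09, 6.34, 2.67, 6.22 and 1.84 over weeks 0, 1, 4, 12 and 21. The D2 values were 6.56, 8.55, 8.26, 7.87 and 6.42 in the same order. The highest B6 array (6.34, week 1) lay just under the lowest D2 array (6.42, week 21). The transcript was thus close to background in B6 at weeks 4 and 21, with deposited signals of 6.03 and 2.97, and the strains lay closest at week 0. The 2 other probe sets of the gene were also lowest in these 2 B6 arrays, at 2.82 and 3.58 and at 1.52 and 3.33. At week 0, unlike the chosen probe set, both were higher in B6, 6.13 against 5.34 and 5.04 against 4.90. The B6 arrays of weeks 4 and 21 had the highest means of macrophage markers, 9.65 and 8.48, whose part in the strain difference was not tested. The mean difference was 2.90 ± 0.68 (SE, adjusted p = 0.0396), and the other probe sets gave 1.25 ± 0.58 and 2.21 ± 0.62 without passing (adjusted p = 0.335 and 0.103 in limma over all named probe sets). The call was lost without any 1 fed array (adjusted p up to 0.13), and without the B6 arrays of weeks 4 and 21 the difference was 1.44 (adjusted p = 0.0777).

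The gene order of the reference places Serpina11 and Serpina4-ps1 in 1 run of 28 serpin genes with no other protein-coding gene between them, from Serpina10 to Serpina3n. Of the 28, 13 were members and 8 were expressed. Along this run the difference was 0.44 ± 0.13 in Serpina10 and 0.77 ± 0.28 in Serpina6, then 0.03 ± 0.05 in both Serpina1b and Serpina1c, which lay at the top of the scale. It was 2.52 in Serpina11, 0.10 ± 0.24 in Serpina12, 2.90 in Serpina4-ps1 and 0.88 in Serpina3n at the far end. Whether the oligonucleotides of these probe sets match the D2 alleles was not tested.

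**Figure D3:**
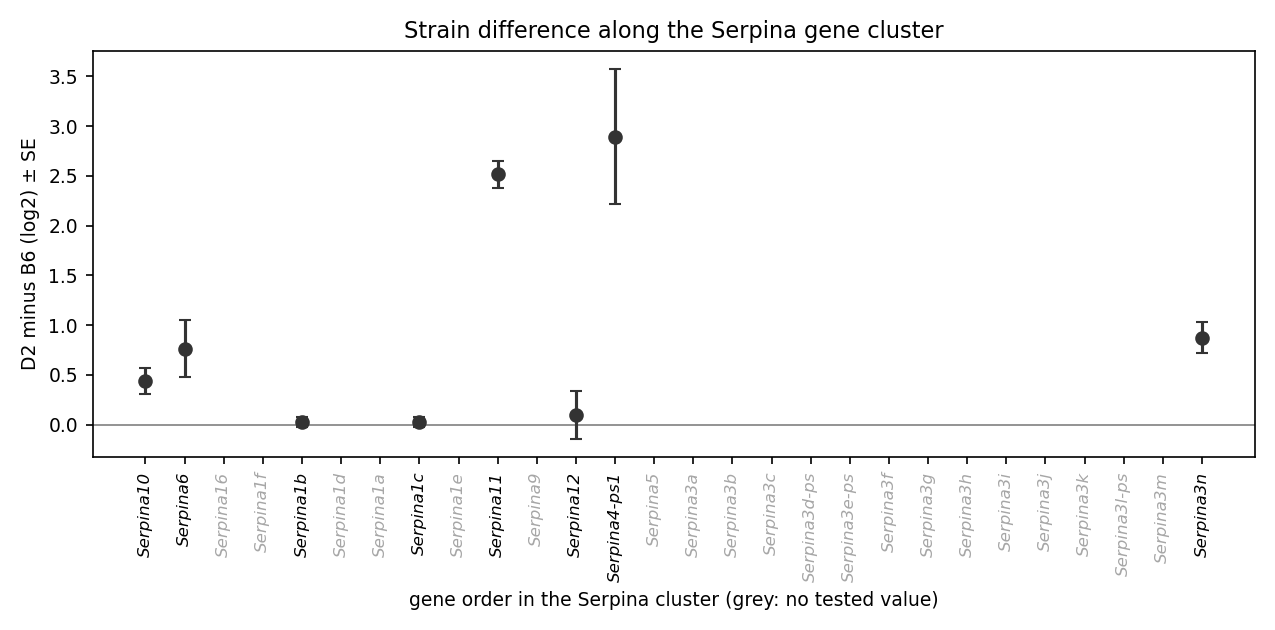
Difference of D2 minus B6 in log2 signal with its SE (vertical) for the 8 expressed genes, in the order of the 28 genes in the Serpina cluster (horizontal, by rank and not by distance); names in grey had no tested value. Serpina1c and Serpina12, at 0.03 and 0.10, are the nearest tested genes on either side of Serpina11 at 2.52.

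Serpina3n, a mouse relative of the antichymotrypsin gene and an acute phase serpin that inhibits granule proteases, was higher in D2. In B6 it was at 10.09, 9.59, 9.97, 9.62 and 10.32 over weeks 0, 1, 4, 12 and 21, and in D2 at 11.22, 10.999, 10.63, 10.56 and 10.55. The strains did not overlap, and the gap was smallest at week 21 (0.23) and largest at week 1 (1.41). The mean difference was 0.88 ± 0.16 (SE, adjusted p = 0.0141). It lost its call without the week 12 array of B6 or D2 (0.86, adjusted p up to 0.0596).

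Serpina1b and Serpina1c encode forms of alpha-1-antitrypsin, the main plasma inhibitor of neutrophil elastase. Over weeks 0, 1, 4, 12 and 21, Serpina1b was at 12.82, 12.75, 12.79, 12.85 and 12.77 in B6 and at 12.86, 12.85, 12.80, 12.86 and 12.77 in D2. Serpina1c was at 12.71, 12.73, 12.63, 12.70 and 12.70 in B6 and at 12.75, 12.70, 12.73, 12.71 and 12.72 in D2. The strains overlapped in both genes, and both differed by 0.03 (adjusted p = 0.748 and 0.767). With arrays centred on their median both differed by 0.17 and did not pass (adjusted p = 0.462 and 0.466). The probe set of Serpina1b ranked between 5 and 17 among all probe sets that were no controls, and that of Serpina1c between 17 and 30, so both lay at the top of the scale that quantile normalisation makes common to all arrays, and their small differences and ranges there do not show that the transcripts were equal. Deposited signals ranged from 6507 to 7949 and from 5993 to 7224. The Serpina1 genes are near-identical copies, and Serpina1b was read by a probe set of the class that can bind several transcripts. The second probe set of Serpina1b lay between 12.60 and 12.67 in B6 and between 12.68 and 12.71 in D2, without overlap, and its difference of 0.06 ± 0.09 did not pass (adjusted p = 0.801 in limma over all named probe sets). A probe set shared by Serpina1b, Serpina1c and Serpina1e had a lower signal and separated the strains. It was at 10.95, 10.19, 10.34, 10.82 and 10.72 in B6 and at 11.65, 11.14, 10.99, 10.99 and 10.98 in D2, with D2 higher at 5 of 5 weeks and a mean difference of 0.55. It named several genes and was not tested. Another, shared by Serpina1a and Serpina1d, lay between 12.76 and 12.92 with overlapping strains.

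The remaining 4 clade A genes, for carriers of hormones, a coagulation inhibitor and vaspin, did not pass. Serpina6 encodes corticosteroid-binding globulin, a hormone carrier without inhibitory action. Its B6 values were 10.13, 11.23, 11.39, 11.85 and 9.81 over weeks 0, 1, 4, 12 and 21, and its D2 values 11.39, 10.98, 11.77, 12.27 and 11.82. B6 was lowest at weeks 0 and 21, and the strains overlapped (0.77 ± 0.28, adjusted p = 0.147). Serpina7 encodes thyroxine-binding globulin. Its B6 values were 4.81, 6.05, 7.97, 6.76 and 6.25, and its D2 values 6.44, 6.37, 7.65, 7.97 and 8.24, so that D2 was higher at 4 of 5 weeks, all but week 4 (0.97 ± 0.31, adjusted p = 0.105). Without the week 4 array of B6 or D2 it passed, with a difference of 1.29 (adjusted p = 0.0284 and 0.0289). Serpina10, the protein Z-dependent inhibitor of activated coagulation factors, was at 10.32, 10.60, 10.74, 10.36 and 10.14 in B6 and at 10.93, 10.53, 10.90, 11.12 and 10.88 in D2. The strains overlapped through D2 at week 1, the lowest D2 array (0.44 ± 0.13, adjusted p = 0.0869). It passed without the week 1 array of B6 or D2, at 0.56 (adjusted p = 0.0391 and 0.0397). Serpina12, which encodes the secreted serpin vaspin, differed by 0.10 ± 0.24 (adjusted p = 0.848).

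The plasma serpins of clades C to G restrain coagulation, fibrinolysis and complement. Serpinc1 encodes antithrombin, the heparin-activated inhibitor of thrombin and factor Xa. Its values in B6 were 12.51, 12.60, 12.53, 12.55 and 12.52 over weeks 0, 1, 4, 12 and 21, and in D2 12.24, 12.11, 12.11, 12.06 and 12.16. All D2 arrays lay below all B6 arrays, with a spread within each strain smaller than the gap. The difference was −0.40 ± 0.06 (SE, adjusted p = 0.00532), or 1.32-fold, and passed whichever array was left out. With arrays centred on their median in place of quantile normalisation it was −0.29 and did not pass (adjusted p = 0.166).

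Serpinf2 encodes alpha-2-antiplasmin, the inhibitor of plasmin, and differed the other way. It was at 11.20, 11.06, 11.10, 10.99 and 10.86 in B6 and at 11.52, 11.26, 11.57, 11.33 and 11.39 in D2. The strains were separated by a small gap, and D2 was higher at 5 of 5 weeks (0.37 ± 0.07, adjusted p = 0.0181). It missed the threshold when an array of week 4, 12 or 21 was left out (0.33 to 0.38, adjusted p up to 0.0725) and with values as deposited (0.37, adjusted p = 0.0737). The other 3 plasma serpins of these clades had small differences that did not pass. Serpind1, which encodes the thrombin inhibitor heparin cofactor II, was at 10.85, 10.93, 10.97, 10.94 and 10.87 in B6 and at 11.19, 11.07, 11.15, 11.01 and 10.97 in D2 (0.16 ± 0.07, adjusted p = 0.184). D2 was higher at every week, but its week 21 array did not exceed the highest B6 array. Serping1 encodes the C1 inhibitor of complement and kallikrein, and was at 11.93, 11.82, 12.23, 11.95 and 12.00 in B6 and at 12.23, 12.15, 12.13, 12.14 and 12.11 in D2 (0.17 ± 0.08, adjusted p = 0.221). In B6 the week 4 array was the highest and reached the level of D2. Serpinf1, for pigment epithelium-derived factor, which has no inhibitory action, was at 11.91, 11.55, 11.46, 11.88 and 11.67 in B6 and at 12.06, 11.82, 11.79, 11.88 and 11.73 in D2 (0.16 ± 0.07, adjusted p = 0.199).

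Among clade B genes, Serpinb8, an intracellular serpin that can inhibit furin, was higher in D2. Its values were 4.25, 4.68, 4.75, 4.36 and 5.39 in B6 and 6.09, 6.33, 5.85, 6.13 and 6.21 in D2 over weeks 0, 1, 4, 12 and 21. The groups did not overlap, and B6 came closest at week 21. The difference was 1.44 ± 0.19 (SE, adjusted p = 0.00356), or 2.70-fold, and kept its call whichever array was left out. The second probe set of the gene gave 0.95 ± 0.20 (adjusted p = 0.0337 in limma over all named probe sets).

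Serpinb6b, a relative of the granule protease inhibitor Serpinb6a, was lower in D2. It was at 4.29, 4.54, 5.98, 4.47 and 5.30 in B6 and at 4.02, 3.67, 3.61, 3.14 and 3.75 in D2. The 2 highest values were those of B6 at weeks 4 and 21, and D2 stayed below a deposited signal of 20 on every array (7.93 to 14.5). Its D2 mean of 3.64 lay under the filter of 3.74, which the gene passed through B6 alone, so the size of the difference is against values near background. The difference was −1.28 ± 0.31 (SE, adjusted p = 0.0437). The call was lost without any 1 fed array (adjusted p up to 0.145), and without the B6 arrays of weeks 4 and 21 the value was −0.82 (adjusted p = 0.382). With signals raised to a floor of 20 it was −0.56 (adjusted p = 0.234).

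Both B6 arrays were also those with the highest macrophage markers. Of 25 listed markers all were named and 23 tested, with Itgam and Trem2 under the filter. Of the 23, 2 (Cd52 and Gpnmb) were lower in D2, against 4.10% of all genes, with a list median of −1.13. The summed normalised signal of all 25 markers spanned 4422 to 27181 over the B6 arrays, against 4498 to 6267 over those of D2. Serpinb6a, an inhibitor of cathepsin G, was at 7.76 and 7.97 in B6 at weeks 4 and 21 and between 6.73 and 7.25 on the other 8 arrays (−0.38 ± 0.18, adjusted p = 0.249). Serpinb9, the granzyme B inhibitor of cytotoxic and antigen-presenting cells, reached 7.55 in the B6 week 4 array and 6.46 in that of week 1, with 5.47 to 6.32 on the other 8 (−0.31 ± 0.22, adjusted p = 0.421). Of 13 neutrophil markers 11 were named and 4 tested, with sums of 99.3 to 818 in B6 and 131 to 193 in D2. Of 18 lymphocyte markers 15 were named and 7 tested, with sums of 269 to 1149 in B6 and 194 to 264 in D2, and the T cell marker Cd3e did not pass the filter. The part of these cells in the serpin values was not tested, and in bulk liver more cells of a type and more RNA per cell cannot be told apart.

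**Figure D4:**
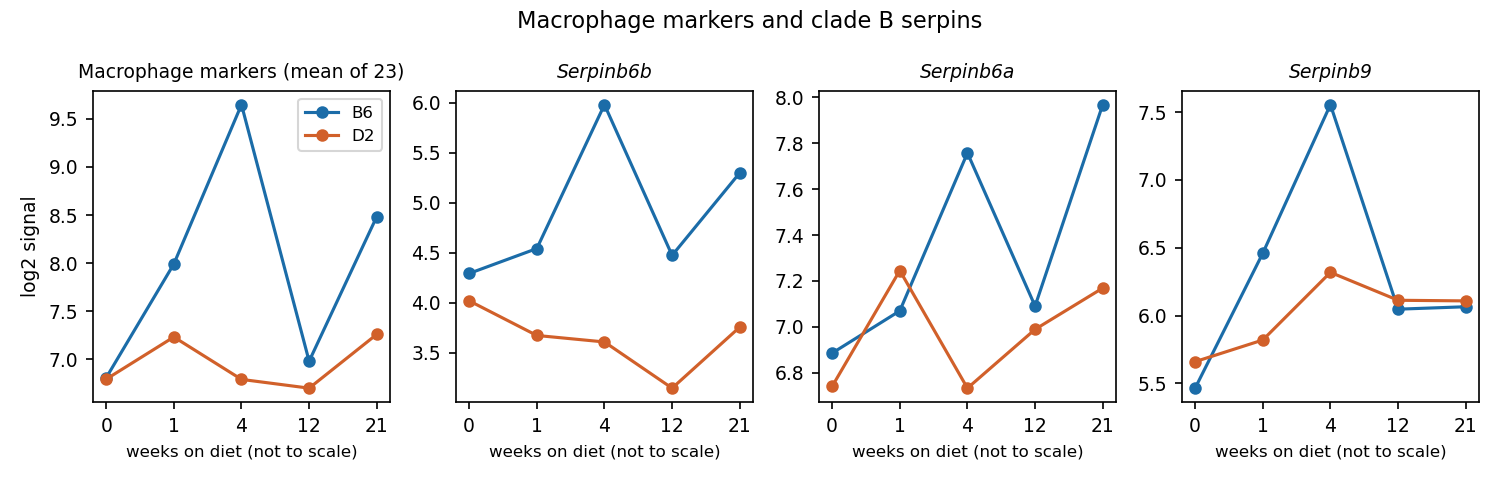
Log2 signal (vertical, a separate scale in each panel) by weeks on the diet (horizontal, not to scale) in B6 and D2, for the mean of 23 macrophage markers and for Serpinb6b, Serpinb6a and Serpinb9, with 1 pooled array per point. The highest point of the macrophage markers, 9.65 in B6 at week 4, falls on the array that is also highest for Serpinb6b (5.98) and Serpinb9 (7.55). Serpinb6a is highest in B6 at week 21 (7.97), where Serpinb9 is at 6.07. Of the clade B genes not shown, Serpinb1a was highest in B6 at week 12 (7.58) and Serpinb6e in B6 at week 0 (5.45). Serpinb8, also not shown, was highest in D2 at week 1 (6.33).

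Serpinb1a, an inhibitor of neutrophil elastase inside cells, varied widely in both strains. Its values were 5.44, 4.03, 5.65, 7.58 and 5.31 in B6 and 4.97, 4.55, 6.57, 6.66 and 6.90 in D2. No strain difference passed (0.33 ± 0.34, adjusted p = 0.596), and its other probe set, at a mean signal of 13.4, gave −0.04 ± 0.32. Serpinb6e differed by −0.25 ± 0.27 (adjusted p = 0.617), and its sign turned without the week 4 array of either strain.

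Serpinh1 encodes HSP47, the chaperone that binds procollagen in the endoplasmic reticulum. It lay between 5.91 and 6.60 in B6 and between 4.98 and 5.96 in D2, and D2 was lower at 5 of 5 weeks, though by less than 0.01 at week 0. The difference of −0.52 ± 0.20 did not pass (adjusted p = 0.169). The second probe set of the gene gave −0.69 ± 0.24 (adjusted p = 0.181 in limma over all named probe sets). There D2 was above B6 at week 0 (5.17 against 5.12) and below it at the later weeks. Of 15 tested genes for collagen chains and their folding, 3 were lower in D2, against 4.10% of all genes, and 0 higher (median −0.44). These were Col1a1, a chain of fibrillar collagen (−3.33 ± 0.59, adjusted p = 0.0142), the collagen galactosyltransferase gene Colgalt1 (−0.67 ± 0.14) and P4hb, the beta subunit of prolyl hydroxylase (−0.33 ± 0.07). Of 16 tested markers of stellate cells and fibroblasts 4 were lower in D2, Col1a1 among them, against the same 4.10%. The summed signal of all 18 markers was 3190 to 6514 in B6 and 2444 to 3177 in D2. Their part in the Serpinh1 values was not tested.

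Genes around the serpins were counted in lists written from textbook knowledge, with earlier results of these data known. Over all genes tested, 3.93% were called higher in D2 and 4.10% lower. Of 21 tested proteases that serpins inhibit, 3 were higher in D2 and 0 lower (median 0.08). F11, coagulation factor XI, was at 8.97, 8.07, 7.92, 7.72 and 7.29 in B6 and at 9.72, 9.02, 9.27, 9.45 and 8.95 in D2 (1.29 ± 0.15, adjusted p = 0.00243). Its strains overlapped only through B6 at week 0, which lay just above D2 at week 21. The complement protease gene Masp1 (0.42 ± 0.10) and the membrane protease gene Tmprss6 (0.28 ± 0.07) also passed. Of 21 other plasma protease inhibitors, Spp2 was higher (0.58 ± 0.14) and Tfpi, the tissue factor pathway inhibitor, lower (−0.76 ± 0.17). Of 11 partners in fibrinolysis 0 passed in limma, and 3 had an unadjusted p under 0.05, as did 23.9% of all genes tested. Of 24 acute phase genes 3 were higher, Apcs (1.66 ± 0.12), Mt1 and Mt2 (1.02 and 1.45), with a list median of −0.02. Of 10 hormone carriers and their partners 2 were higher, the deiodinase gene Dio1 (0.54 ± 0.11) and Hsd11b1, which regenerates active corticosteroid (0.27 ± 0.05).

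The second comparison asked whether serpin transcripts changed on the diet. Set against week 0 in a limma fit that held a term for strain, 0 of the 21 expressed genes passed, against 0.633% of all genes (0.398% higher and 0.235% lower), and 2 had an unadjusted p under 0.05, against 17.5% of all genes. The median change was −0.03 over the members and 0.01 over all genes tested. Serpina7 had the smallest p, with 1.53 ± 0.53 (SE, adjusted p = 0.178). In B6 it was 4.81 at week 0 and 6.76 ± 0.86 on the diet, and in D2 it was 6.44 and 7.56 ± 0.83 (SD, 4 arrays on the diet per strain). Every array on the diet but that of D2 at week 1 (−0.07) lay above its week 0. Serpinf1 followed, with −0.26 ± 0.10 (adjusted p = 0.203) and a lower normalised value than week 0 in 8 of 8 fed arrays. In its second probe set D2 at week 12 (11.14) lay above week 0 (11.08). As deposited, B6 at weeks 12 and 21 (3972 and 3373) lay above week 0 (3306), as did D2 at week 12 (4191 against 3835). Under other processing the change lay between −0.42 and −0.03. Serpinb9 (0.75 ± 0.34), Serpina12 (0.97 ± 0.44) and Serpinb6e (−0.75 ± 0.35) had adjusted p-values of 0.287, 0.288 and 0.294. In their chosen probe sets, Serpinb9 and Serpina12 were above week 0 in 8 of 8 fed arrays. The second probe set of Serpinb9, at a mean signal of 22.5, lay below its D2 week 0 value (4.31) at weeks 1, 12 and 21. The lowest of these was week 1 (3.89), and week 12 was only just below. D2 at week 4 and all fed B6 arrays lay above week 0 there. With values as deposited, where the median of all genes moved by 0.52, 6 members passed with higher values on the diet: Serpina7 (2.07), Serpina12 (1.52), Serpinb9 (1.30), Serpinb6a, Serpinb8 and Serpind1. All changes within a strain share its single week 0 array.

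**Figure D5:**
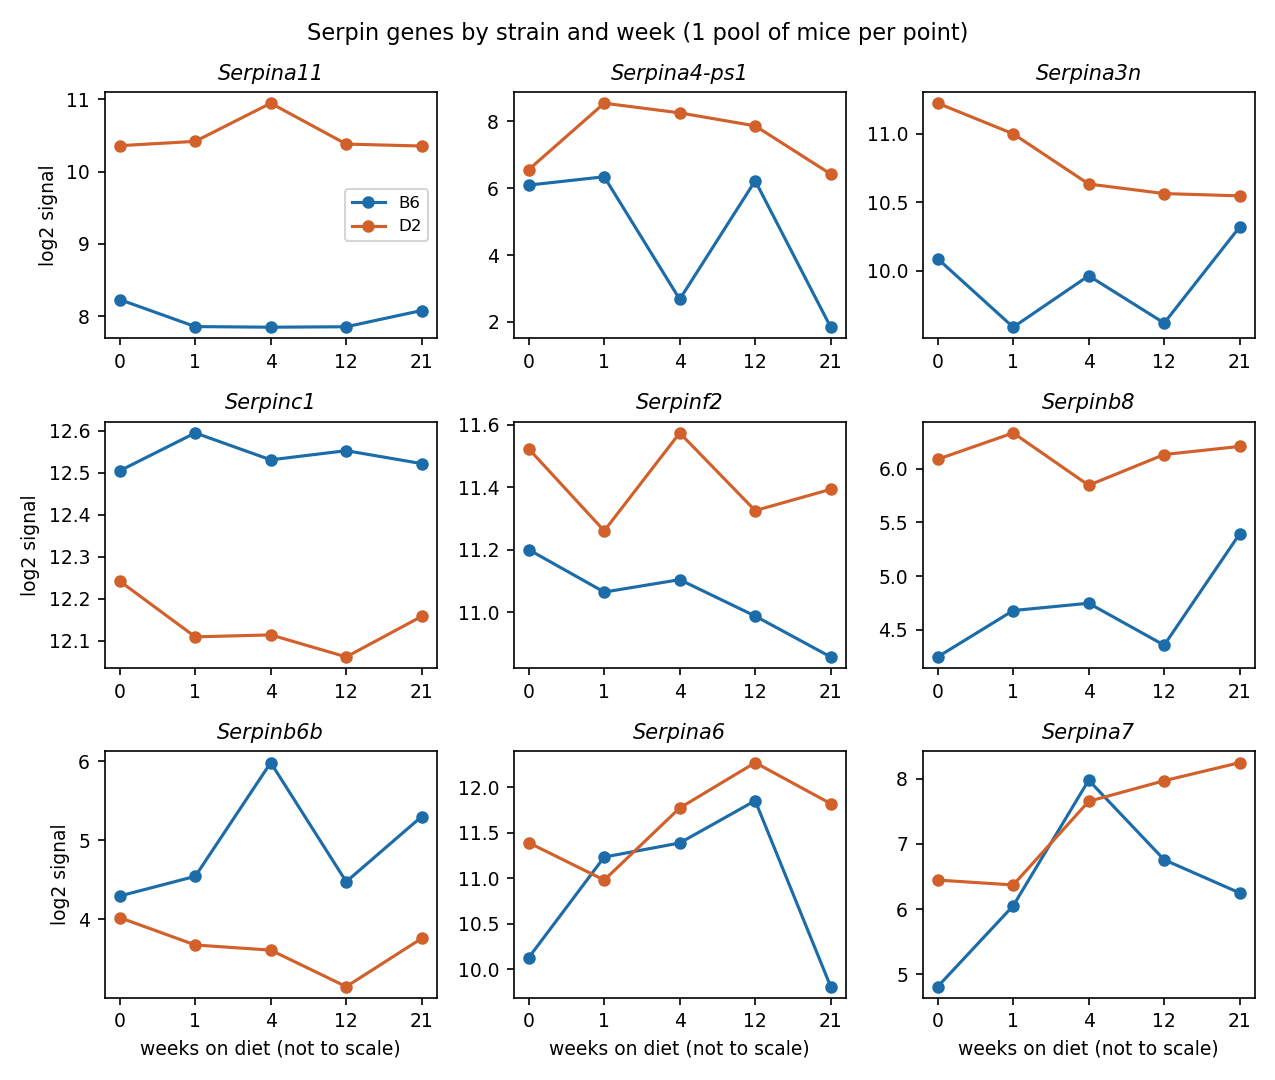
Log2 signal (vertical, a separate scale in each panel) by weeks on the diet (horizontal, not to scale) in B6 and D2, with 1 pooled array per point, for the 7 genes that differed between the strains and for Serpina6 and Serpina7. Serpina11 stays apart at every week, and Serpina7 in B6 runs from 4.81 at week 0 to 7.97 at week 4.

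Within each strain 0 members passed. In B6 0.118% of all genes were called and 1 member, Serpina7, had an unadjusted p under 0.05 (1.95 ± 0.76, adjusted p = 0.346). In D2 0.145% were called and 0 members had an unadjusted p under 0.05, Serpina3n having the smallest p with −0.54 ± 0.27 (adjusted p = 0.496). The difference between the responses of the strains was called for 0 members and for 0.00904% of all genes, and 0 members had an unadjusted p under 0.05. Serpinb6b had the smallest p there (−1.26 ± 0.77, adjusted p = 0.858), and the difference of responses in Serpina4-ps1 was 3.04 ± 2.25 (adjusted p = 0.904). In the fed against week 0 comparison the protease, inhibitor, collagen, fibrinolysis, acute phase and hormone lists had 0 genes called in limma and 3, 6, 0, 3, 1 and 1 genes with an unadjusted p under 0.05.

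The members differed in how much they varied over the 10 arrays. The 11 genes with a mean log2 signal of 9 or more had a median range of 0.59, against 0.61 over the 1435 tested genes at that level. The 10 genes under 9 had a median range of 2.10, against 0.94 over 9624 tested genes. Serpina1b and Serpina1c had ranges of 0.11 and 0.13 at the top of the scale, where the normalisation limits them, against 1.46 for the probe set they share with Serpina1e. The widest ranges were those of Serpina4-ps1 (6.71), Serpinb1a (3.54) and Serpina7 (3.43).

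The 19 genes near background had mean signals between 1.44 and 11.04. They were Serpina1f, Serpina3a, Serpina3i, Serpina5, Serpina9, Serpinb1b, Serpinb2, Serpinb3a, Serpinb5, Serpinb6c, Serpinb7, Serpinb9b, Serpinb9c, Serpinb9d, Serpinb9g, Serpinb11, Serpinb12, Serpini1 and Serpini2. They include the neuronal serpin Serpini1 and Serpinb5, the epithelial serpin maspin. Only Serpinb9b reached a signal of 20 on any array, with 22.6 in B6 at week 21 and 21.8 at week 1. Among these genes Serpina3a and Serpina9 had higher values in D2 at 5 of 5 weeks. For Serpina3a these were 2.12 ± 1.23 in B6 and 3.67 ± 0.61 in D2 (SD, n = 5), with overlapping arrays. For Serpina9 they were 1.576 ± 0.676 and 3.204 ± 0.332, and its strains did not overlap, with B6 at most at 2.53 and D2 at least at 2.92. Neither gene passed the filter for testing. In limma over all named probe sets, without that filter, neither was called. The differences there were 1.55 ± 0.48 for Serpina3a (adjusted p = 0.137) and 1.63 ± 0.43 for Serpina9 (adjusted p = 0.0798).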

How the data were processed

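The values are probe set signal intensities on a linear scale from Affymetrix Mouse Genome 430 2.0 arrays, deposited by the authors and made with GCOS, per the submitters' processing notes, without a version. RNA was extracted with Trizol, per the labels' protocols. From 45101 probe sets, 64 controls were left out, and 34945 with a single symbol were used. Signals were quantile normalised, 1.05 (the 10th percentile of deposited values) was added, and log2 was taken. Of several probe sets of a gene, that with the highest mean deposited signal was used, and 11059 genes with a mean log2 above 3.74, the median of all probe sets, were tested in R 4.3.3 with limma 3.58.1 (eBayes with trend, threshold 0.05 after Benjamini-Hochberg adjustment). The strain fit had week as a block (4 residual degrees of freedom), since the labels give 1 pool of each strain at each week. The diet fit had strain as a term (7), and responses within strains came from 4 group means (6), where a lone week 0 array is assumed to vary like fed arrays. Fits were tested on simulated data.

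The members and gene lists were chosen with earlier results of these data known. Named were all expressed members, with every array's value for those that passed or were among the 12 of highest mean signal, and up to 4 genes of each list that passed. Sequences and gene order came from RefSeq (GRCm38.p6), in which all 40 members matched, and were read with Biopython 1.88. Figures used matplotlib 3.10.9. Scaling, pseudocount, floor, filter, probe set choice, variance model, block and each array were varied, as given at the end; leaving out the B6 arrays of weeks 4 and 21 was added after seeing the data.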

Additional observations from a re-analysis of the deposited data

Results flagged for a closer look

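Within the 4 fed arrays of a strain, 42 sets of values were examined for 1 array standing apart by Dixon's criterion at the 95% level, which chance meets in about 1 of 20 sets, and 3 were found. Serpina11 was at 8.08 in B6 at week 21 against 7.85 to 7.86 on the other fed B6 arrays. In D2 the same gene was at 10.94 at week 4 against 10.35 to 10.42. Serpinb1a was at 4.55 in D2 at week 1 against 6.57 to 6.90 later.

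In 3 genes all 4 fed B6 arrays lay above week 0 and all 4 fed D2 arrays below it. How many of all genes tested moved in this way was not counted, so the 3 cannot be set against a share. The change was 0.78 in B6 and −0.47 in D2 for Serpinb6b, a difference of −1.26 (limma adjusted p = 0.858). It was 0.05 and −0.13 for Serpinc1 (difference −0.18, adjusted p = 0.894) and 0.08 and −0.14 for Serpind1 (difference −0.22, adjusted p = 0.895). None of the 3 differences passed the interaction test, and each strain's changes share 1 week 0 array.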

How the results depend on the processing

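The count of 7 members called between the strains lay between 5 and 7 under another scaling, pseudocount, floor, filter, probe set rule, robust variance or the fed arrays alone. It was 3 with eBayes without trend (Serpina11, Serpina3n and Serpinb8) and 3 without the B6 arrays of weeks 4 and 21. With 1 array left out, where either array of a week gives the same strain difference through the block, it ranged from 3 to 7. Without the replicate block for week it was 6, with Serpina4-ps1 lost (adjusted p = 0.0812); deviations of same-week arrays from their strain means correlated between 0.03 and 0.37 over 5 weeks. No paired analysis of the diet change was possible because week and diet share the week 0 arrays. Serpinb6b missed the threshold with values as deposited (adjusted p = 0.0502), with a mean signal limit of 20 (0.0503), with no filter (0.0651) and without trend (0.0533). Serpina4-ps1 missed it with the mean over probe sets (2.12, adjusted p = 0.103), without trend (0.077) and with robust variance (0.0644).

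For the diet, members called were 0 in the main setting and 6 with values as deposited, and in B6 alone 0 and 1. They were 0 in all other settings, also with 1 array left out (0 to 0). Signs turned in small differences between the strains. With 1 array left out, Serpina12 ranged from −0.19 (without either week 12 array) to 0.26, and Serpinb6e from −0.41 to 0.042 (without either week 4 array). Without the B6 arrays of weeks 4 and 21, Serpinb6e was 0.13 and Serpinb1a −0.29.

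Over all genes, 888 were called between the strains (435 higher, 453 lower), against 600 (205 and 395) as deposited, 624 with the mean over probe sets, 653 without trend (eBayes), 260 without the B6 arrays of weeks 4 and 21, and 392 to 724 with 1 array left out. For the diet 70 were called (44 and 26), against 4987 (4946 and 41) as deposited, 315 (278 and 37) with arrays centred on their median, 125 with a floor of 20, and 14 to 95 with 1 array left out. Signals near 20 limit Serpinb6b, Serpinb6e and the low values of Serpina4-ps1.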
